A study of Drosophila melanogaster with 4 samples.

Results

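The digestive lysozyme cluster of Drosophila melanogaster was described in whole larvae of the third instar, with an added copy of Inr-a or wild type. Its members were taken by symbol, as LysB, LysC, LysD, LysE, LysP, LysS and LysX, and are 7 of the 14028 genes and 8 of the 30090 transcripts in the deposited table. Transcripts were summed per gene, and the genes were also summed over the cluster, because the copies are close paralogs and reads may be divided among them differently from library to library.

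The comparison asks how the added copy of Inr-a, which encodes the mRNA cleavage and termination factor Pcf11, moved expression over the genome. Inr-a duplication larvae (labelled pcf11/+, 3 copies of Inr-a) were the non-GFP progeny of w[a]; Pcf11Dup/CyO GFP males crossed to Canton S females. Wild type larvae (labelled +/+, 2 copies) were Canton S. Both groups were labelled male and raised at 25 °C, with 2 libraries per genotype and 30 larvae pooled in each. The paternal autosomes of the Inr-a duplication larvae came from the Pcf11Dup stock, so lysozyme alleles of that stock and the added copy of Inr-a cannot be told apart.

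Lysozymes cut the peptidoglycan of bacterial cell walls between N-acetylmuramic acid and N-acetylglucosamine. In Drosophila the genes of this cluster are known for expression in the digestive tract rather than in the fat body, which makes the antimicrobial peptides of the blood, and the enzymes are thought to digest bacteria taken up with food. LysB, LysD, LysE and LysS are known from the midgut of feeding larvae or adults, LysX from the midgut around metamorphosis and LysP from the adult salivary gland.

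The table holds the authors' mean CPM (counts scaled to a common library total) per genotype, from which counts of single libraries were recovered as the pair of whole counts that gives the mean. A single pair was found for 99.73% of the Inr-a duplication and 99.45% of the wild type transcripts above 0. The totals were 15423445 and 14084653 counts for the Inr-a duplication and 12558720 and 11304266 counts for wild type. The deeper library of a genotype is called A and the other B, which are not the study's replicate numbers, and the values of a genotype's libraries are given as A, then B. Genes were tested with limma on the log2 of CPM, scaled by TMM and with 0.5 added, at a threshold of 0.05 on the p adjusted over 11540 genes. With 2 libraries each, an exact permutation test cannot go below p = 0.333. Inr-a itself, listed as Pcf11, had 1285 and 1338 counts in the Inr-a duplication and 758 and 656 in wild type, with a ratio of mean CPM of 1.51, a log2 fold change of 0.62 (SE 0.26) and an adjusted p = 0.180 in limma. The larvae were extracted whole, so a different number of midgut cells and a different amount of lysozyme RNA per cell cannot be told apart in any value below.

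The 7 genes span 33500 bases of chromosome 3L in BDGP6.54, from 1194739 to 1228238. LysX (FBgn0004431) lies at the left end on the reverse strand, from 1194739 to 1195302, and is set apart from the rest by 12068 bases. The other 6 lie within 20868 bases: LysB (FBgn0004425, forward strand, 1207371 to 1207981), LysC (FBgn0004426, forward, 1210485 to 1210726), LysD (FBgn0004427, reverse, 1210717 to 1211196), LysE (FBgn0004428, forward, 1212827 to 1213406), LysP (FBgn0004429, reverse, 1218082 to 1218696) and LysS (FBgn0004430, forward, 1227747 to 1228238). All 7 have a single exon. The 6 genes from LysB to LysS lie inside mwh, a gene known for limiting wing hairs, without overlap with the exons of its 3 transcripts. LysC is annotated as a pseudogene of 242 bases, and its last 10 bases overlap those of LysD on the other strand. LysB alone has 2 transcripts, of 486 and 611 bases, which differ at the 3′ end.

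LysD, LysB and LysS were the most abundant members in both genotypes, LysE and LysP were higher in the Inr-a duplication and LysX was lower. As a level per length, the Inr-a duplication had 4499 CPM per kb for LysD, 3161 for LysB, 1673 for LysS, 751 for LysC, 445 for LysE, 127.5 for LysX and 5.86 for LysP. Wild type had 2269 CPM per kb for LysB, 2254 for LysD, 1453 for LysS, 761 for LysX, 385 for LysC, 52.6 for LysE and 0 for LysP. Each transcript was divided by its full annotated length. LysC has only 242 bases against paired reads of 150 bases, so its level per length may not compare with those of the longer members. Single libraries are given here with the closest of the possible pairs of counts for LysB and LysD, described with those genes. In the Inr-a duplication both libraries then gave the same order, with LysD at 5033 and 3964 CPM per kb, above its neighbour LysB at 3498 and 2824. The neighbours LysC (988 and 515) and LysE (548 and 342) overlapped there. In wild type, LysB and LysD did not differ beyond the spread between libraries, with 2137 and 2401 CPM per kb for LysB and 2360 and 2148 for LysD. With the second pair, LysD would have 727 and 8270 CPM per kb in the Inr-a duplication, below LysB in library A, and 156 and 4351 in wild type, so its place in single libraries is not settled. LysX took the fourth place of the order in wild type and the sixth in the Inr-a duplication, and LysE took the sixth place in wild type and the fifth in the Inr-a duplication.

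A single pair of counts in each genotype was found for 5 members, LysC, LysE, LysP, LysS and LysX, which entered the test. Of these 5, LysE and LysP passed the threshold as higher and LysX as lower, against 1.72% of all genes tested called higher and 0.503% called lower. For 3 of the 5 (LysC, LysE and LysP) each Inr-a duplication library exceeded both of wild type, as it did for 22.9% of all genes tested, and for 1 (LysX) each fell below both, as for 30.3%. LysP passed the filter on low counts only through its Inr-a duplication libraries, which fixed the direction of its difference in advance. Its call thus adds nothing to these counts. LysB and LysD lie above 1003 CPM, where a mean may fit several pairs of counts, and were left out of the test. When transcripts were tested one by one, an alternative chosen after seeing the data, limma called 0 members, with an adjusted p of 0.122 for LysE, 0.285 for LysP and 0.0951 for LysX. That fit called 0 of 20111 transcripts in all. At an unadjusted p below 0.05 it had 1349 higher and 933 lower, with LysE, LysP and LysX among them.

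LysE showed the largest fold among the midgut members. It had 318.0 and 198.4 CPM (4904 and 2795 counts) in the Inr-a duplication, against 28.9 and 32.1 CPM (363 counts each) in wild type. Both Inr-a duplication libraries were far above the wild type libraries, library A more so than B, and the wild type libraries were nearly equal. The mean was 258 ± 84.5 CPM in the Inr-a duplication and 30.5 ± 2.27 CPM in wild type (SD, n = 2 each), a ratio of 8.46. The log2 fold change of 3.05 (SE 0.28) had an adjusted p = 1.62e-07 in limma and was the 15th highest of the 11540 genes tested. Leaving out each library in turn gave 2.63 to 3.47.

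LysD was the most abundant member per length in the Inr-a duplication and had a mean of 2159 CPM there, against 1082 CPM in wild type, a ratio of 1.996. Its counts per library are not settled. The Inr-a duplication mean fits 37262 and 26800 counts (2416 and 1903 CPM) or 5385 and 55910 counts, and the wild type mean fits 14226 and 11653 counts (1133 and 1031 CPM) or 941 and 23611 counts. The first pair of each genotype puts the libraries 1.27-fold and 1.10-fold apart, and the second pair 11.4-fold and 27.9-fold. Libraries were at least 10-fold apart in only 4 of 1233 Inr-a duplication transcripts (0.324%) and 1 of 1258 wild type transcripts (0.0795%) of 100 CPM or more that have a single pair. With the pairs whose libraries are closest, chosen after seeing the data, the Inr-a duplication exceeded wild type in both libraries without overlap, and the log2 fold change was 1.02 (SE 0.31) with an adjusted p = 0.0723 in limma, short of the threshold. This choice of pairs itself favours a small spread and a lack of overlap. With the second pairs, LysD had 349 and 3970 CPM in the Inr-a duplication and 74.9 and 2089 CPM in wild type, and the genotypes overlapped.

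LysC, the annotated pseudogene that overlaps the end of LysD, had 239.0 and 124.7 CPM (3686 and 1756 counts) in the Inr-a duplication, against 86.4 and 99.9 CPM (1085 and 1129 counts) in wild type. Library A of the Inr-a duplication stood well above the other 3 and library B only slightly above the higher wild type library, without overlap between genotypes. The mean was 182 ± 80.8 CPM in the Inr-a duplication and 93.1 ± 9.53 CPM in wild type (SD, n = 2 each), a ratio of 1.95, close to that of LysD. The log2 fold change of 0.92 (SE 0.30) did not pass the threshold (adjusted p = 0.10, unadjusted p = 0.00559, limma). It was 0.37 without Inr-a duplication library A, and 1.46 with an adjusted p = 0.000374 without library B, so whether it passed the threshold depended on library B. LysC and LysD together had 2341 CPM in the Inr-a duplication and 1175 CPM in wild type, a ratio of 1.99.

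LysB had a mean of 1557 CPM in the Inr-a duplication and 1120 CPM in wild type, a ratio of 1.39. Its closest pairs gave 1722 and 1393 CPM in the Inr-a duplication, against 1053 and 1187 CPM in wild type. In wild type, the short transcript also fits 25637 and 376 counts in place of 12352 and 12334, which would put the libraries 61.4-fold apart rather than 1.11-fold. With the closest pair, a choice made after seeing the data, the genotypes did not overlap, and the log2 fold change was 0.50 (SE 0.30) with an adjusted p = 0.338 in limma, which did not pass the threshold. This choice itself favours a lack of overlap. With the other pair, the short transcript had 2041 and 33.3 CPM in wild type, against 1614 and 1294 CPM in the Inr-a duplication, and the genotypes overlapped.

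The 2 transcripts of LysB share their start and coding part, and the longer one (611 bases) has a 3′ untranslated region of 165 bases in place of 40. Since Pcf11 acts at the 3′ ends of transcripts, the share of the longer one was counted. It was 6.30% (95% Wilson interval 6.02 to 6.60) and 7.06% (6.71 to 7.42) of the LysB counts in the Inr-a duplication, and 6.59% (6.18 to 7.03) and 8.05% (7.60 to 8.52) in wild type, with the closest pair for wild type. The libraries of the genotypes overlapped, while the counting intervals of libraries of the same genotype did not. From the authors' means, the longer transcript was 6.64% of LysB in the Inr-a duplication and 7.37% in wild type. Its ratio of means was 1.25 (103 CPM in the Inr-a duplication and 82.5 CPM in wild type), and that of the shorter transcript was 1.402.

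LysS had 961.2 and 684.6 CPM (14825 and 9642 counts) in the Inr-a duplication, against 697.6 and 732.2 CPM (8761 and 8277 counts) in wild type. Library A of the Inr-a duplication was the highest of the 4 and library B the lowest, so the genotypes overlapped. The mean was 823 ± 196 CPM in the Inr-a duplication and 715 ± 24.5 CPM in wild type (SD, n = 2 each), with a log2 fold change of 0.21 (SE 0.30, adjusted p = 0.709, limma). The sign rests on library A of the Inr-a duplication, without which the log2 fold change was -0.12 (adjusted p = 0.860).

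LysX ran the other way. It had 72.4 and 71.4 CPM (1117 and 1005 counts) in the Inr-a duplication, against 379.3 and 479.3 CPM (4763 and 5418 counts) in wild type. The Inr-a duplication libraries were nearly equal, and both lay far below both wild type libraries. The mean was 71.9 ± 0.755 CPM in the Inr-a duplication and 429 ± 70.7 CPM in wild type (SD, n = 2 each), a ratio of 0.168. The log2 fold change of -2.53 (SE 0.27, adjusted p = 1.56e-06, limma) was the 8th lowest of the 11540 genes tested, and lay between -2.69 and -2.38 when single libraries were left out. Among all genes ranked by mean CPM, LysX stood at place 2113 in the Inr-a duplication and at place 330 in wild type.

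LysP had 40 and 65 counts (2.59 and 4.62 CPM) in the Inr-a duplication, and 0 counts in both wild type libraries. A count of 0 in both wild type libraries was taken to allow up to 3 counts over the group, or 0.126 CPM. Against this limit, the mean of LysP was at least 28.7-fold higher in the Inr-a duplication. The limit covers counting error and not the spread between libraries. This bound was 20.6-fold without Inr-a duplication library B and 36.7-fold without library A. Leaving out a wild type library gave 13.6-fold for A and 15.1-fold for B. The level was low in both genotypes, with 3.60 ± 1.43 CPM in the Inr-a duplication (SD, n = 2). The fitted log2 fold change of 3.0 (SE 0.42, adjusted p = 8.89e-05, limma) depends on the pseudocount, and was 2.18 with a pseudocount of 1 and 5.17 with 0.1. It could not be fitted without either Inr-a duplication library, since LysP then failed the filter.

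**Figure D1:**
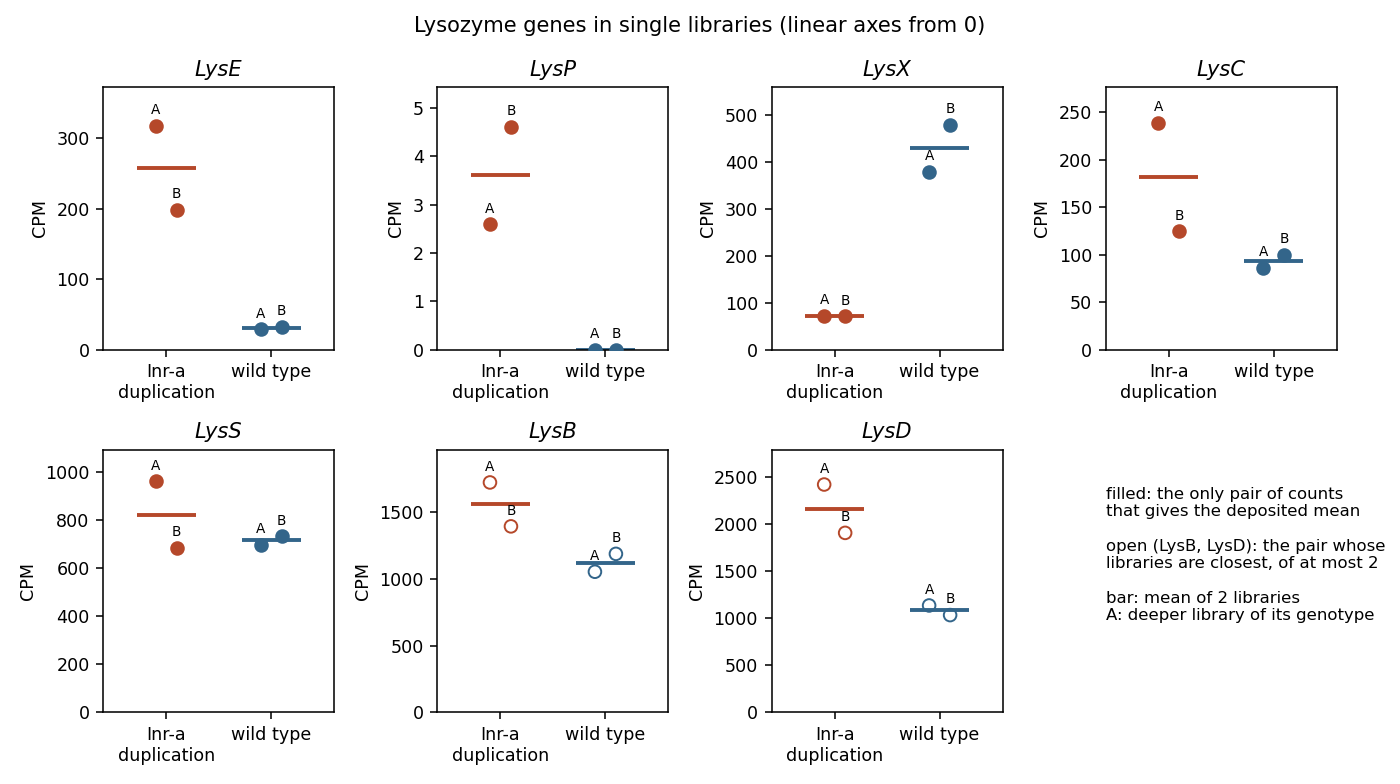
CPM of each lysozyme gene in single libraries, with Inr-a duplication libraries A and B left of wild type libraries A and B and a bar at the mean of each genotype, on linear axes from 0. Filled points are the only pair of counts that gives the deposited mean, and open points (LysB and LysD) the closest pair: LysE lies at 318.0 and 198.4 CPM in the Inr-a duplication against 28.9 and 32.1 in wild type, and LysX at 72.4 and 71.4 CPM in the Inr-a duplication against 379.3 and 479.3 in wild type.

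Summed over the 7 genes, the cluster had a mean of 5055 CPM (0.506% of all CPM) in the Inr-a duplication and 3469 CPM (0.347%) in wild type, a ratio of 1.46. With the closest pairs for LysB and LysD, the sum was 5731 and 4379 CPM in the Inr-a duplication, against 3378 and 3561 CPM in wild type. With these pairs the genotypes did not overlap, and the ratio lay between 1.26 and 1.65 when single libraries were left out. With the second pairs of LysD, also computed after seeing the data, the sum was 3664 and 6446 CPM in the Inr-a duplication, against 2320 and 4619 CPM in wild type, and the genotypes overlapped, while the ratio of the means does not depend on the pair. No p is given for a sum over chosen genes. The sum is carried by LysD and LysB: without LysD the ratio was 1.21, and over the 5 members with settled library values it was 1.06, with 1593 and 1084 CPM in the Inr-a duplication and 1192 and 1343 CPM in wild type. Those 5 overlapped between genotypes, and their ratio was 0.855 without Inr-a duplication library A.

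The neighbours LysB, LysC, LysD and LysE, which lie nearest to each other, had 4157 CPM together in the Inr-a duplication and 2325 CPM in wild type, a ratio of 1.79. With the closest pairs for LysB and LysD, their sum was 4695 and 3618 CPM in the Inr-a duplication, against 2301 and 2349 CPM in wild type, without overlap. With the second pairs of LysD it was 2628 and 5685 CPM in the Inr-a duplication, against 1243 and 3407 CPM in wild type, and the genotypes overlapped. An exchange of reads among these 4 genes leaves their sum as it is. The mean of LysE was 228 CPM higher in the Inr-a duplication than in wild type, where LysB and LysD together had 2202 CPM. How reads were divided among the copies was not tested, since no transcript sequence was used here.

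**Figure D2:**
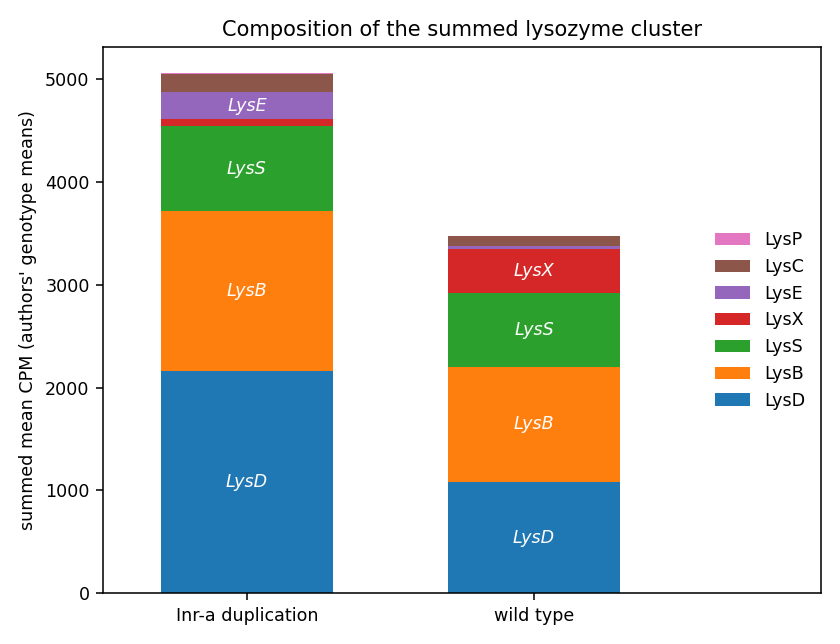
Mean CPM of the 7 lysozyme genes stacked for the Inr-a duplication (left) and wild type (right), from the authors' genotype means. The column of the Inr-a duplication reaches 5055 CPM, with LysD at 42.7% and LysX at 1.42%, and that of wild type 3469 CPM, with LysD at 31.2% and LysX at 12.4%.

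The make-up of the cluster is given from the authors' means. In the Inr-a duplication, LysD took 42.7% of the cluster, LysB 30.8%, LysS 16.3%, LysE 5.11%, LysC 3.60% and LysX 1.42%. In wild type, LysB took 32.3%, LysD 31.2%, LysS 20.6%, LysX 12.4%, LysC 2.68% and LysE 0.879%. With closest pairs, the share of LysX was 1.26% and 1.63% in the Inr-a duplication libraries and 11.2% and 13.5% in the wild type libraries, and that of LysE was 5.55% and 4.53% in the Inr-a duplication against 0.856% and 0.902% in wild type. These shares did not overlap between genotypes and, being shares of a sum, are not independent of each other.

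Along the chromosome, the member with the low ratio is the one that stands apart. LysX, at the left end and outside mwh, had a ratio of 0.168, and the 6 genes inside mwh had ratios of 1.15 or more, LysP as a bound. Within these 6 the ratio did not follow position, with LysE at 8.46 beside LysD at 1.996 and LysS at 1.15 at the right end. Strand did not separate them either, as LysB, LysC, LysE and LysS lie on the forward strand and LysD, LysP and LysX on the reverse strand.

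**Figure D3:**
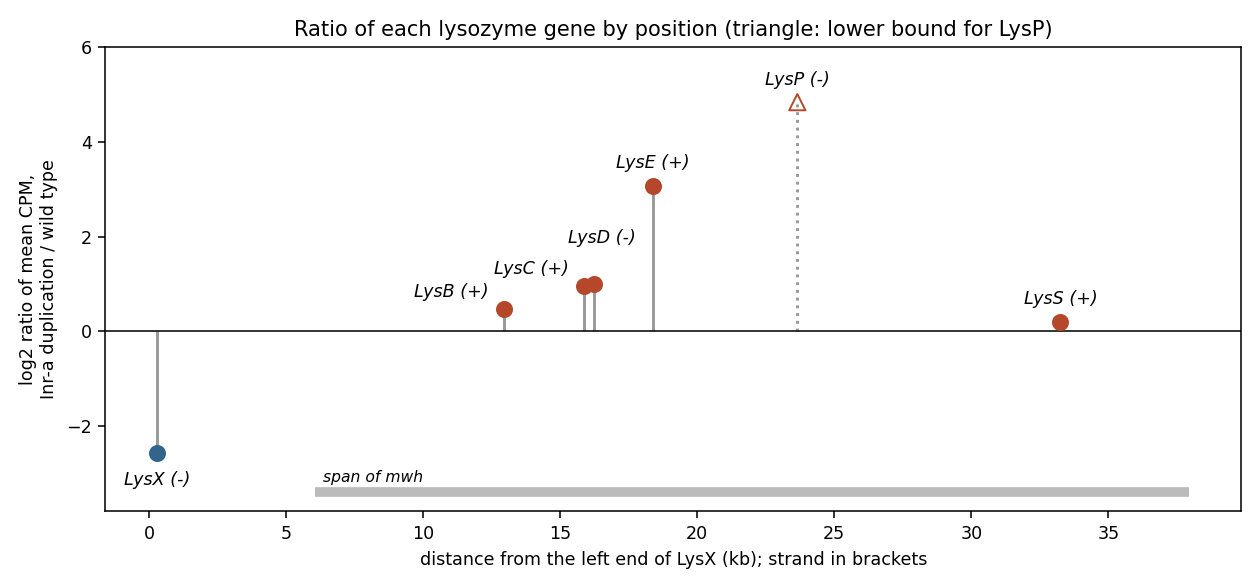
Ratio of mean CPM (log2, Inr-a duplication over wild type) of each lysozyme gene against its distance from the left end of LysX in kb, with strand in brackets and the span of mwh as a grey bar. LysX alone lies below 0, and the open triangle marks the lower bound of 28.7-fold for LysP.

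Of the 14 other genes nearest to or among the lysozyme genes, 11 had a ratio above 1 and 3 below 1, from 0.812 to 12.5. Limma called 2 of them higher and 0 lower, beside 1.72% of all genes called higher, and 7 were higher at an unadjusted p below 0.05, beside 1404 higher and 994 lower of all 11540 genes tested. CG32335, between LysX and LysB, had 27 and 33 counts in the Inr-a duplication and 3 and 1 in wild type (log2 fold change 1.95, SE 0.42, adjusted p = 0.0109). Like LysP, it passed the filter only through its Inr-a duplication libraries, which fixed the direction of its difference in advance. CG33966 is the only other one called. CG33966, to the right of mwh, had 5.25 and 7.24 CPM in the Inr-a duplication and 2.39 and 2.04 CPM in wild type (log2 fold change 1.33, SE 0.34, adjusted p = 0.0353). The host gene mwh had 117 and 79 counts in the Inr-a duplication and 45 and 24 in wild type, and its log2 fold change of 1.13 did not pass the threshold (adjusted p = 0.0790). Aplip1, the nearest gene to the right of LysX, had a ratio of 1.09.

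The lysozyme genes are short, and short genes had lower ratios in these libraries. The median ratio was 0.828 over 997 genes whose longest transcript has 400 to 700 bases, members left out, and 0.994 over 12255 genes with library values and 10 or more counts. Both medians leave out the genes with several possible pairs of counts, which have a transcript above 1003 CPM and include LysB and LysD. All members but LysC have a longest transcript in this range of length. Beside the median of 0.828, the ratio was 1.15 for LysS, 1.39 for LysB, 1.996 for LysD, 8.46 for LysE and 0.168 for LysX.

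The 11 other lysozyme genes of the fly, of the C-type and of the invertebrate type, made up 125 CPM in the Inr-a duplication and 91.3 CPM in wild type, far less than the cluster. Limma called 0 of the 4 tested, with 1 higher at an unadjusted p below 0.05. CG8492 had a mean of 53.6 CPM in the Inr-a duplication and 38.3 CPM in wild type (log2 fold change 0.50, adjusted p = 0.292). CG6426 had 40.7 CPM in the Inr-a duplication and 27.9 CPM in wild type (log2 fold change 0.56, adjusted p = 0.226). The log2 fold change was 0.14 for CG16799 (21.9 CPM in the Inr-a duplication and 20.0 CPM in wild type, adjusted p = 0.802) and 0.54 for CG14823 (5.90 CPM in the Inr-a duplication and 3.93 CPM in wild type, adjusted p = 0.367). These 4 thus lay from 0.14 to 0.56 on the log2 scale, beside 3.05 for LysE and -2.53 for LysX. The other 7 did not pass the filter and carry no test. Among them, CG7798 had 10 and 26 counts in the Inr-a duplication and 1 and 0 in wild type. Its ratio of means was 31.3, at 1.25 CPM in the Inr-a duplication and 0.0398 CPM in wild type. Of all 11, 7 had a ratio of means above 1, 3 below 1 and 1 was at 0 in both genotypes.

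The 5 genes most like the summed cluster in level, by distance between log2 of mean CPM plus 0.5 over the 2 genotype means, were CG18180 (distance 0.234), Jon25Biii (0.319), Sgs5 (0.332), Jon65Aiv (0.415) and CG8997 (0.481). Jon25Biii and Jon65Aiv are serine proteases of the gut and Sgs5 is a salivary glue protein. CG18180, the nearest, had 4300 CPM in the Inr-a duplication and 3527 CPM in wild type, and the cluster had 5055 CPM in the Inr-a duplication and 3469 CPM in wild type. None of the 5 had single pairs of counts, so they carry no test.

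Digestive enzymes made in the same organ were set beside the cluster. Of 26 digestive proteases, 24 had a ratio of means above 1, their sum was 62200 CPM in the Inr-a duplication and 43220 CPM in wild type, and 2 of the 16 tested were called higher. The trypsin gene betaTry had 872 and 740 CPM in the Inr-a duplication and 193 and 270 CPM in wild type (log2 fold change 1.84, SE 0.29, adjusted p = 0.000406, limma), and thetaTry had a log2 fold change of 1.04 (adjusted p = 0.0436). Of 13 glycosidases and lipases tested, 3 were called higher and 0 lower, and an unadjusted p below 0.05 was reached by 8 higher and 0 lower genes, as it was by 8 higher and 0 lower of the 16 proteases tested. Over all 11540 genes tested, 1.72% were called higher and 1404 were higher and 994 lower at that unadjusted p. The glycosidases called were the maltases Mal-A1 (log2 fold change 1.82, adjusted p = 0.000347) and Mal-A3 (1.21, adjusted p = 0.0253) and the amylase Amy-d (1.37, adjusted p = 0.0255). Of the 14 listed, 11 had a ratio of means above 1 and 3 below 1. The amylase Amy-p was among those below 1, with 364 CPM in the Inr-a duplication and 472 CPM in wild type (log2 fold change -0.17, adjusted p = 0.810, limma). How reads were divided between Amy-d and Amy-p was not tested. The median log2 fold change was 0.61 for the proteases tested and 0.73 for the glycosidases and lipases, against 0.02 over all genes tested. Beside these medians, the log2 fold change was 0.21 for LysS, 0.92 for LysC, 3.05 for LysE and -2.53 for LysX.

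Peptidoglycan recognition proteins and amidases, which bind or cut the same bacterial polymer, were not called in either direction (0 of 13 in limma, where an unadjusted p below 0.05 was reached by 0 higher genes and 1 lower gene). PGRP-SC1a, a gut amidase, had a mean of 623 CPM in the Inr-a duplication and 450 CPM in wild type (adjusted p = 0.356), and PGRP-SC2 had 245 CPM in the Inr-a duplication and 172 CPM in wild type (adjusted p = 0.241). Of 10 genes of the Imd pathway, which senses peptidoglycan, 0 were called and 0 had an unadjusted p below 0.05, with Rel at 90.6 CPM in the Inr-a duplication and 67.4 CPM in wild type (adjusted p = 0.304) and Tab2 at 65.5 CPM in the Inr-a duplication and 61.0 CPM in wild type. Of 13 antimicrobial peptide genes tested, 0 were called by limma, an unadjusted p below 0.05 was reached by 0 higher and 2 lower genes, and the median log2 fold change was -0.21. Of the 14 listed, 4 had a ratio of means above 1 and 10 below 1. The 2 lower genes were DptA (log2 fold change -1.07, adjusted p = 0.141) and Def (-1.23, adjusted p = 0.123). Drs had 141 CPM in the Inr-a duplication and 109 CPM in wild type, and AttA had 19.9 CPM in the Inr-a duplication and 16.1 CPM in wild type. The libraries of AttA overlapped, with 32.03 and 7.81 CPM in the Inr-a duplication and 15.77 and 16.45 CPM in wild type (log2 fold change 0.02).

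**Figure D4:**
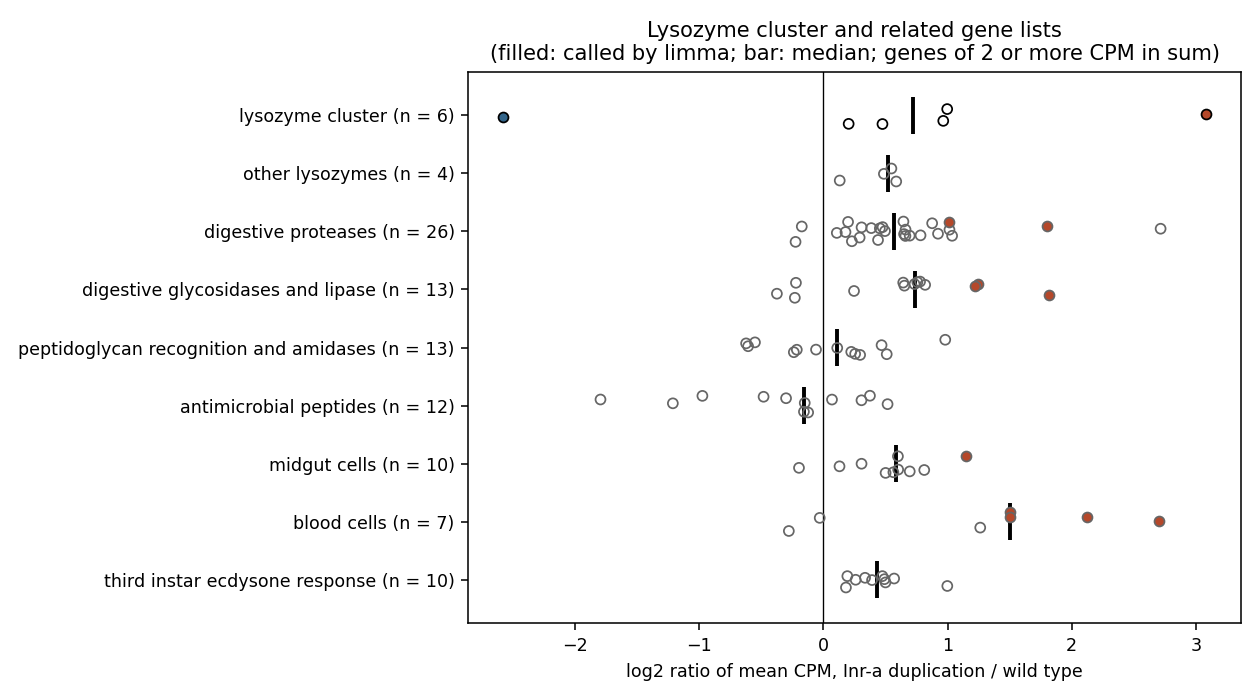
Each point is the log2 ratio of mean CPM (Inr-a duplication over wild type) of a gene of at least 2 CPM in sum over the genotypes, in the lysozyme cluster (6 genes, LysP left out for its 0 in wild type) and in 8 related lists, with a bar at the median and filled points for genes called by limma. The median is 0.72 for the cluster, 0.57 for digestive proteases and -0.15 for antimicrobial peptides, and LysX lies left of every other point.

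Markers of the tissues that could carry the lysozyme RNA were read in the same libraries. Midgut markers summed to 476 and 546 CPM in the Inr-a duplication, against 411 and 447 CPM in wild type, and 9 of the 10 had a ratio above 1. Limma called 1 of them, the gut proton pump subunit Vha100-4 (17.9 and 14.5 CPM in the Inr-a duplication, 6.13 and 8.49 CPM in wild type, log2 fold change 1.13, adjusted p = 0.0469). Before adjustment, 4 of the 10 midgut markers had a p below 0.05 with a rise, and 0 with a fall. Among all 11540 genes tested, the same limit was met by 1404 with a rise and 994 with a fall, and 1.72% were called higher. Of the most abundant markers, Peritrophin-15a had a mean of 244 CPM in the Inr-a duplication and 197.5 CPM in wild type, and Myo31DF had 88.6 CPM in the Inr-a duplication and 81.0 CPM in wild type. The ratio of the midgut marker sum was 1.19, against 1.46 for the cluster, 8.46 for LysE and 0.168 for LysX. This sum is weighted to the abundant markers, and the median log2 fold change of the 10 was 0.55, against 0.02 over all genes tested. The part of midgut cells in the lysozyme values was not tested.

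Salivary gland markers summed to 26170 CPM in the Inr-a duplication and 24130 CPM in wild type, and limma called 0 of the 5 tested, with 1 higher at an unadjusted p below 0.05. The glue genes Sgs3 (6635 CPM in the Inr-a duplication, 5406 CPM in wild type) and Sgs8 (6298 CPM in the Inr-a duplication, 7358 CPM in wild type) led this list. Of its 12 genes, 10 had a ratio above 1, 1 below 1 and 1 was at 0 in both genotypes. Larval fat body and stage markers, none with single pairs of counts, summed to 75810 CPM in the Inr-a duplication and 65370 CPM in wild type, led by Lsp2 with 24750 CPM in the Inr-a duplication and 22170 CPM in wild type and Fbp1 with 21200 CPM in the Inr-a duplication and 28990 CPM in wild type. The larval serum protein genes of this list had larger ratios, of 2.12 for Lsp1beta, 3.16 for Lsp1alpha and 4.54 for Lsp1gamma, and Fbp2 had 0.886. Beside the 2 highest markers of each list, these 4 and Sgs4 (ratio 2.05) and ng2 (ratio 2.57, adjusted p = 0.0512 in limma) in the salivary gland were named after their values were seen. Of 10 ecdysone response genes of the late larva, all 10 had a ratio above 1 and 0 were called by limma, with 2 higher at an unadjusted p below 0.05. They summed to 853 and 1089 CPM in the Inr-a duplication against 716 and 697 CPM in wild type, led by br with 304 CPM in the Inr-a duplication and 205 CPM in wild type (adjusted p = 0.215) and Eip71CD with 235 CPM in the Inr-a duplication and 169 CPM in wild type (adjusted p = 0.271). The 2 genes with an unadjusted p below 0.05 were br and EcR. EcR had 39.6 and 59.5 CPM in the Inr-a duplication and 26.2 and 23.4 CPM in wild type (log2 fold change 0.99, adjusted p = 0.0526, limma).

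Blood cell markers summed to 226 and 376 CPM in the Inr-a duplication and 101 and 48.9 CPM in wild type. Limma called 4 of 7 higher, beside 1.72% of all genes tested (PPO1, PPO2, Hml and NimC1, with log2 fold changes of 2.66, 2.22, 1.67 and 1.33). Of the 7, 5 had a ratio of means above 1 and 2 below 1, PPO3 at 0.82 and lz at 0.98. Of 4 genes tested that differ between the sexes, limma called 0, with 0 at an unadjusted p below 0.05. The Y-linked kl-5 had 28 and 23 counts in the Inr-a duplication and 24 and 22 counts in wild type, and msl-2 had 44.8 CPM in the Inr-a duplication and 41.4 CPM in wild type. The part of larval stage, salivary gland or blood cells in the values of LysX, LysP and LysE was not tested.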

How the data were processed

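RNA of whole male larvae of the third instar was sequenced (paired-end, 150 bases). The authors trimmed reads with Trimmomatic, quantified transcripts with Salmon 1.4.0 (index words of 31 bases, Ensembl transcriptome) and imported them with tximport. Salmon shares reads that fit several paralogs by likelihood, so values of single copies carry more error than their sum. The authors deposited mean CPM per genotype. A further deposited column, the ratio between both genotypes, is their own comparison and was not used. The authors tested with DESeq2. Here limma 3.58.1 (R 4.3.3, trend, two-sided, Benjamini-Hochberg) was chosen because the deposited unit is CPM.

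Counts per library were recovered from the means by a search tested on simulated data, and 128 genes with several pairs (39.3% of the Inr-a duplication and 39.0% of the wild type CPM) were left out of the tests. The filter asked for 10 counts at the median library size in 2 libraries and 15 in all. TMM factors were 0.942 and 1.04 for the Inr-a duplication and 1.01 and 1.01 for wild type. The libraries are described as biological replicates. The p-values of limma set a difference against a spread between libraries that is moderated toward a trend over all genes. With 2 libraries per genotype, this spread rests largely on other genes rather than on the libraries of the gene itself. Intervals and limits from counts cover counting error only. Positions come from Ensembl release 115 (BDGP6.54), in which 29964 of 30090 transcript identifiers were found. Tables were handled in pandas 2.3.3 and numpy 2.4.6 under Python 3.11.15, with scipy 1.17.1 for intervals.

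All 7 members are named. Of other lists, the called genes are named, at most 4 by fold change, and with fewer than 2 called the 2 highest by mean CPM (4 for other lysozymes). Flanking genes are named when called, and mwh and Aplip1 were added after their values were seen. From the lists, CG7798, Amy-p, DptA, Def, EcR, PPO3 and lz were also added after their values were seen. Members and lists were chosen with earlier results of these data known. Alternatives were library size in place of TMM, other pseudocounts, no filter, each library left out, other sums, and, chosen after seeing the data, the closest pairs, the second pairs of LysD and a test per transcript. Comparisons of transcript, promoter and protein sequence were not run.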

Additional observations from a re-analysis of the deposited data

How the results depend on the processing

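The calls of LysE and LysX held with library size in place of TMM, with pseudocounts of 1 and 0.1 and with no filter on low values. They also held with the closest pairs for LysB and LysD. LysP was called in each of these settings as well (3 genes), but the filter, where applied, fixed the direction of its difference in advance. With each library left out in turn, 2 to 3 lysozyme genes were called: LysE and LysX each time, LysP only with both Inr-a duplication libraries present, and LysC only without Inr-a duplication library B (adjusted p = 0.000374, limma). The exception was the test per transcript, with 0 calls among the members and 0 over all transcripts, and the cause was not tested. LysS alone changed sign, with -0.12 without Inr-a duplication library A and 0.53 without library B. The ratio of the summed cluster was 1.79 over LysB, LysC, LysD and LysE only, against 1.46 over all 7 and 1.21 without LysD, and lay between 1.26 and 1.65 with each library left out, an alternative chosen after seeing the data.

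Over all genes, limma called 257 (199 higher and 58 lower). This count was 76 (59 higher and 17 lower) with library size in place of TMM and 59 (45 higher and 14 lower) without the filter, and 120 to 1031 with each library left out (1031 without Inr-a duplication library A, 120 without library B and 513 without wild type library A), where the lone library of a genotype is assumed to vary like the pair of the other. No paired analysis was possible because the deposited columns are genotype means and the recovered libraries carry no replicate numbers. LysB and LysD, the largest shares of the cluster in both genotypes, have no settled library values, which limits every statement on the summed cluster per library.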
